A study of Mus musculus with 9 samples.

Results

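The corpus is the middle segment of the epididymis, and its messenger RNA was set against that of the segments on either side, the caput and the cauda. All 9 libraries of the series entered, 3 from corpus, 3 from caput and 3 from cauda. The mice were C57BL/6J, wild type and 9 months old, and no group was treated. A corpus peak was defined as a gene higher in corpus than in caput and also higher than in cauda, each at an adjusted p under 0.05, and a corpus dip as a gene lower than in both. Of 14168 genes tested, 1892 peaked and 1230 dipped in corpus. Nothing in the labels says that a segment's 3 libraries stand for different animals, so each p-value reflects only how far these libraries vary, and that variation may be technical.

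The epididymis is a single coiled duct that carries sperm from the testis. The caput receives them, the corpus lies in the middle, and the cauda stores them until ejaculation. Along the duct, principal cells secrete proteins that coat and protect sperm, clear cells acidify the fluid, and basal cells sit beneath them on the basement membrane. Each segment of the duct is known for secreting its own mixture of defensins, protease inhibitors and enzymes.

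Gene counts totalled 2600061, 6076479 and 5353421 in corpus replicates 1 to 3, 3013470, 3221708 and 3946335 in caput, and 5902972, 5095298 and 6072094 in cauda. Expression is given as CPM, counts scaled to a common library total after TMM scaling. A single count stood for 0.155 CPM in the deepest corpus library and for 0.374 in the shallowest. Across libraries of 1 segment, counts differed by 1.60 to 6.78 times sampling noise (chi-square per degree of freedom). Rn45s, the ribosomal RNA precursor, took 0.299% to 1.15% of corpus counts, 0.514% to 0.817% of caput counts and 0.243% to 0.450% of cauda counts.

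Corpus differed from the equal-weight mean of its neighbours at 3719 genes that were higher (26.2% of those tested) and 3420 that were lower (24.1%), by edgeR's quasi-likelihood test at an adjusted p under 0.05. That contrast did not by itself mark a peak or a dip. Of the 3719 higher genes, 1892 (50.9%) were higher than both neighbours, 1218 were higher than caput only and 364 higher than cauda only. Of the 3420 lower genes, 1230 (36.0%) were lower than both, 1563 lower than caput only and 495 lower than cauda only. Against caput alone, 4180 genes (29.5%) were higher in corpus and 3993 (28.2%) lower. Against cauda alone, 2891 (20.4%) were higher in corpus and 2661 (18.8%) lower. The comparisons share their corpus libraries.

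Peaks made up 13.4% of the tested genes and dips 8.68%. At least 2-fold from both neighbours, 567 genes peaked (4.0%) and 398 dipped (2.81%). Beyond 8-fold from both there were 86 peaks and 49 dips. The 3 corpus libraries lay above all 6 others at 2379 genes (16.8%) and below all 6 at 1626 (11.5%). Of the tested genes, 1835 (13.0%) were peaks without such overlap and 1175 (8.29%) dips without it. Most 2-fold peaks lay nearer to cauda than to caput in level, 421 of 567 (74.3%), and so did most 2-fold dips, 260 of 398 (65.3%). The likeness of corpus to cauda was not particular to these genes. In log2 CPM of all tested genes, corpus libraries correlated best with another segment at 0.905 to 0.921. Caput libraries reached only 0.753 to 0.761 with any other segment. The 2-fold peaks took 6.58% ± 0.122 of the counts in corpus, 1.14% ± 0.041 in caput and 1.73% ± 0.101 in cauda (SD, n = 3 each). The 2-fold dips took 0.511% ± 0.059 in corpus, 10.04% ± 0.144 in caput and 2.38% ± 0.246 in cauda. Much of the caput share of the dips was Gpx5 alone, which averaged 48958 CPM there. The rule that picked the genes fixed the direction of both sets of shares, so only their size is informative.

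**Figure D1:**
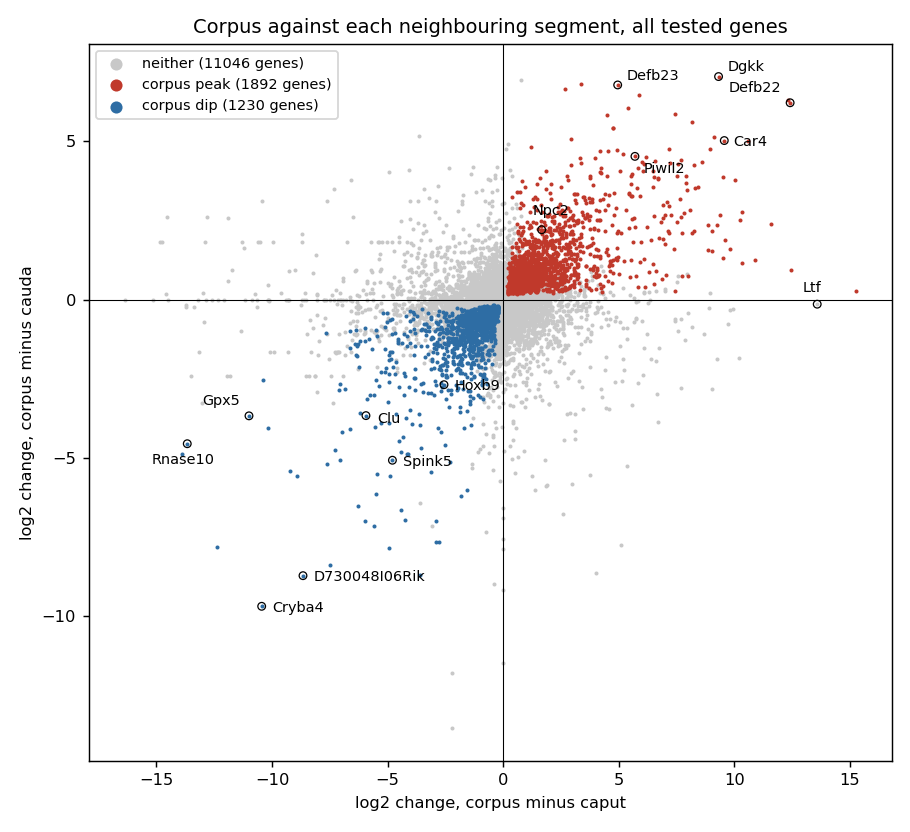
Each point is 1 of 14168 tested genes, with its log2 change in corpus minus caput on the x axis and in corpus minus cauda on the y axis, red for the 1892 peaks and blue for the 1230 dips. Peaks fill the upper right and dips the lower left, and both extend further along the caput axis. Values beyond about 10 in size mostly involve a segment with few or no counts, where the fitted change depends on the model's prior count.

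Among the 10 most abundant 2-fold peaks by CPM, the highest per transcript length encoded secreted proteins. In RPKM, which divides by gene length, Defb22 averaged 1857 ± 135 in corpus, 0.360 ± 0.176 in caput and 26.2 ± 11.9 in cauda (SD, n = 3 each). Npy, the gene of neuropeptide Y, averaged 1750 ± 200 RPKM in corpus, 9.39 ± 1.67 in caput and 301.3 ± 80.9 in cauda. Wfdc13, of the whey acidic protein domain family of protease inhibitors, averaged 1609 ± 58.4 RPKM in corpus, 0.614 ± 0.558 in caput and 320.0 ± 143 in cauda. Npc2, a secreted cholesterol-binding protein of epididymal fluid, averaged 687 ± 65.2 RPKM in corpus, 240.2 ± 16.2 in caput and 157 ± 22 in cauda.

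Defb22 encodes a beta-defensin of the sperm glycocalyx, the sugar-rich coat of the sperm surface, and lies on chromosome 2 from 152485663 to 152490138 on mm10, minus strand. It had 2393, 2072 and 2557 CPM in corpus libraries, 0.338, 0.624 and 0.264 in caput and 24.8, 21.8 and 47.1 in cauda. No corpus library came near any other, and caput held 4 counts in all. Its log2 change was 12.41 ± 0.38 (SE) against caput and 6.21 ± 0.23 against cauda, with a larger adjusted p of 3.63e-10. Defb23, its neighbour from 152459055 to 152464620, had 148, 242 and 236 CPM in corpus, 7.43, 11.2 and 2.38 in caput and 0.512, 1.40 and 3.65 in cauda. Here cauda was the lower neighbour, and the groups did not overlap. The log2 change was 4.95 ± 0.35 against caput and 6.78 ± 0.39 against cauda, the second being 7.79 without cauda replicate 3. Defb26, from 152507798 to 152511692, averaged 205 ± 8.86 CPM in corpus, 0.496 ± 0.146 in caput and 10.003 ± 2.69 in cauda (SD, n = 3 each).

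These 3 defensin genes lay among 6 tested genes of a stretch of chromosome 2 from 152459055 to 152540098, a region picked after its values were seen, and the other 3 had other profiles. Defb20 averaged 14.8 CPM in corpus, 4047 in caput and 5.42 in cauda. Defb29 averaged 3.74 CPM in corpus, 47.1 in caput and 1.08 in cauda, and Defb28 averaged 1497 in corpus, 3.18 in caput and 1790 in cauda. Adjacent genes of 1 family thus had their highest level in different segments. Promoters of the neighbouring peaks Defb22 and Defb23 are shown because the 2 genes share the corpus peak and differ in which neighbour is lower. They run from 250 bases before to 50 after the start in RefSeq's GRCm38.p6, at chr2:152490089-152490388 and chr2:152464571-152464870, both minus strand and printed 5′ to 3′ along the gene. Capitals mark letters matching any of 6 motifs searched on both strands.
Defb22: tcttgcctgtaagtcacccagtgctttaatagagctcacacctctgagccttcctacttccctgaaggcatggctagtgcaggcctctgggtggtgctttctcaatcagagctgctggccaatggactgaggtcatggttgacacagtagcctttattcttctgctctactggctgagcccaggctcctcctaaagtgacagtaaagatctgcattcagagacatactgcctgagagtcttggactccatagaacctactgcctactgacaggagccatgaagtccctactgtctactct
Defb23: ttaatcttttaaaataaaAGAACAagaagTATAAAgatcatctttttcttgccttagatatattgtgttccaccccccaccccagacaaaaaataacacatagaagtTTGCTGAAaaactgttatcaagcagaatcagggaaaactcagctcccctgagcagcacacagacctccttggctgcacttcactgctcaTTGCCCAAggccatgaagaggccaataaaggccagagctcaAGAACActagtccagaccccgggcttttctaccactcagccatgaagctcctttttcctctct
Over 11049 promoters of tested genes, the motifs were present at these shares. The TATA box (TATAAA) was in 7.52% and the androgen and glucocorticoid receptor half-site (AGAACA) in 12.6%. AP-1 (TGANTCA) was in 5.03%, C/EBP (TTGCNNAA) in 8.19%, forkhead (TGTTTAC) in 2.51% and ETS (CCGGAAG) in 16.9%. The Defb23 window held AGAACA 232 and 13 bases before the start, TATAAA 221 bases before it and TTGCNNAA 143 and 54 bases before it. None of these letters were in the Defb22 window.

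Enzymes and membrane proteins also led the peaks. Car4, a carbonic anhydrase anchored to the cell surface, had 956, 872 and 973 CPM in corpus, 1.69, 0.936 and 1.06 in caput and 26.3, 27.4 and 32.3 in cauda. All 3 corpus libraries were high and the 6 others low, with log2 changes of 9.56 ± 0.16 (SE) against caput and 5.02 ± 0.10 against cauda. Glb1l3, named as a beta-galactosidase-like gene, averaged 962 ± 88.1 CPM in corpus, 0.913 ± 0.112 in caput and 70.2 ± 7.88 in cauda (SD, n = 3 each). Cdhr2, a protocadherin of brush-border microvilli, averaged 91.9 ± 9.53 CPM in corpus, 3.36 ± 0.632 in caput and 2.21 ± 1.22 in cauda. Ak8, an adenylate kinase, averaged 65.8 ± 4.70 CPM in corpus, 1.76 ± 0.542 in caput and 2.68 ± 0.604 in cauda. Ccnd2, the cell cycle regulator cyclin D2, averaged 824 ± 127 CPM in corpus, 27.0 ± 2.72 in caput and 348 ± 15.9 in cauda. H2-K1, a heavy chain of the major histocompatibility complex class I, averaged 1348 ± 143 CPM in corpus, 393 ± 40.1 in caput and 622 ± 36.3 in cauda, and 17.6% of its 36-base windows also occur in another gene.

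Several genes best known from other tissues peaked in corpus. Piwil2, which binds small RNAs in the male germ line, had 113, 99.1 and 121 CPM in corpus, 2.36, 1.87 and 2.11 in caput and 5.12, 5.6 and 3.81 in cauda. Its log2 change was 5.70 ± 0.18 (SE) against caput and 4.52 ± 0.14 against cauda, with a larger adjusted p of 7.99e-11. Male germ cell markers were summed beside it: 570.0 to 630 CPM in corpus, 216 to 248 in caput and 794 to 1177 in cauda. The part of germ cell content in the Piwil2 peak was not tested. Myom2, an M-band protein of striated muscle, had 264, 282 and 260.3 CPM in corpus, 0, 1.87 and 0.792 in caput and 6.66, 4.20 and 5.30 in cauda. The groups did not overlap, and the log2 change against caput was 8.17 ± 0.25, or 9.16 without caput replicate 2.

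Tg, the gene of thyroglobulin, precursor of thyroid hormone, had 43.8, 29.8 and 46.9 CPM in corpus, 0, 0.312 and 0.264 in caput and 0.342, 0.801 and 0.828 in cauda. Caput held 2 counts, giving a ratio of 193 with a 95% counting interval of 53.1 to 1594. Dgkk, a diacylglycerol kinase, had 80.5, 72.1 and 91.9 CPM in corpus, 0.338, 0 and 0 in caput and 0.342, 0 and 1.33 in cauda. Its log2 change against cauda was 7.04 ± 0.33 (SE), and 8.58 without cauda replicate 3. Against caput, where replicate 1 held the 1 count, it was 806 times higher, with a 95% counting interval of 144 to 31866, and such intervals cover counting error only. Without that library caput had 0 counts, and the fitted log2 change against caput, 11.61 beside 9.32 with it, then depends on the prior count. BC048679, for which no function is given here, had 935, 813 and 1013 CPM in corpus, 46.2, 60.2 and 18.2 in caput and 14.0, 12.6 and 21.5 in cauda.

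**Figure D2:**
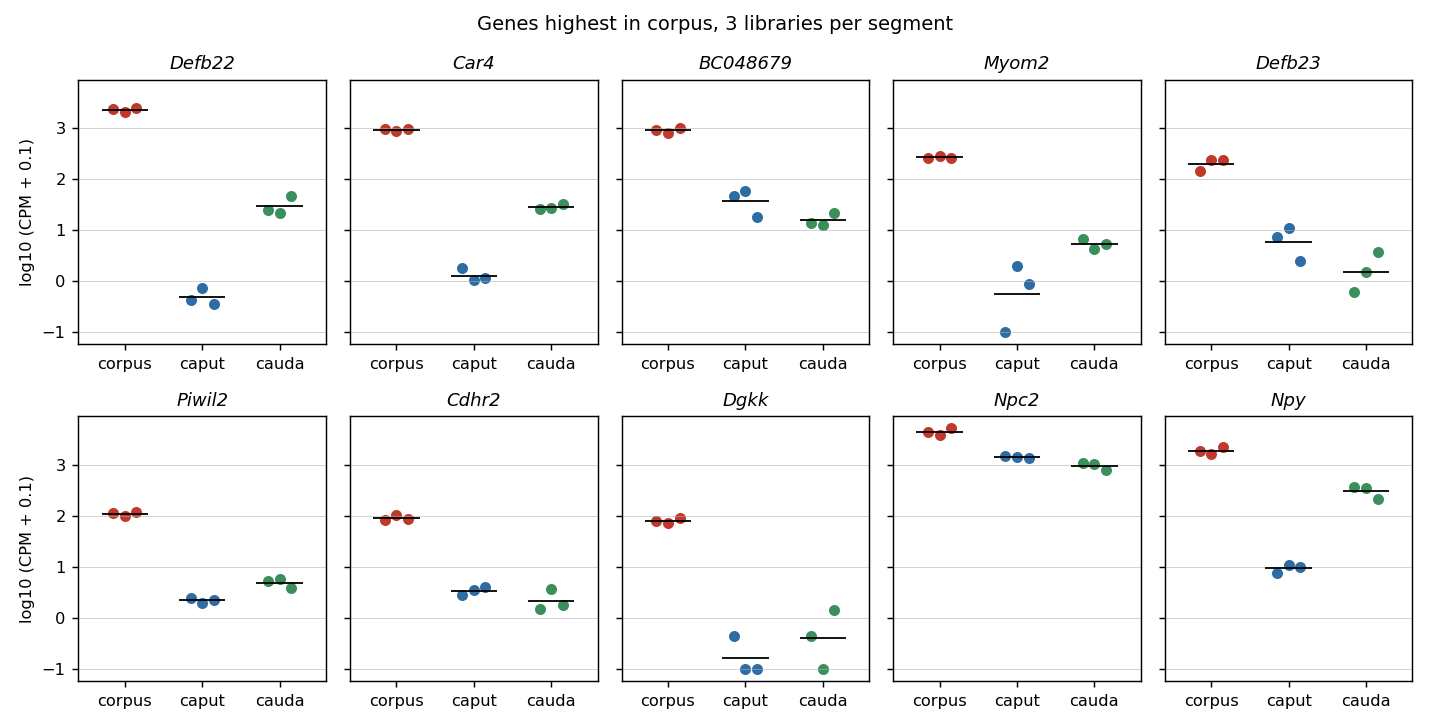
Expression of 10 genes with a corpus peak, as log10 (CPM + 0.1), in 3 libraries per segment, with corpus on the left in red, caput in blue and cauda in green. Bars are the means of the log values. In each panel the 3 corpus points lie above the other 6. Cauda is the lower neighbour for Defb23, BC048679, Cdhr2 and Npc2, and caput for the rest.

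The leading dips included genes about equally high on both sides of the corpus and genes very high in caput with a small remainder in cauda. D730048I06Rik, on chromosome 9 from 35788050 to 35790112, had 6.74, 3.88 and 4.52 CPM in corpus, 1844, 1880 and 2012 in caput and 1898, 2147 and 1944 in cauda. It was 413-fold lower in corpus than in caput and 428-fold lower than in cauda, with log2 changes of -8.66 ± 0.14 and -8.72 ± 0.14 (SE). The groups did not overlap, and 17.3% of its 36-base windows occur in another gene. Spink5, a Kazal-type protease inhibitor that regulates skin shedding, had 49.8, 48.8 and 41.4 CPM in corpus, 1309, 1281 and 1277 in caput and 1302, 1551 and 1858 in cauda. Its log2 change was -4.79 ± 0.14 against caput and -5.08 ± 0.14 against cauda, and corpus stood apart in every library.

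Cryba4, a beta-crystallin known from the eye lens, lies on chromosome 5 from 112246493 to 112252518. It had 0.749, 0 and 0 CPM in corpus, 249, 203 and 246 in caput and 126, 138 and 149 in cauda. Corpus held 2 counts, all in replicate 1, giving a ratio 1680 times lower than caput (95% counting interval 465 to 13881) and 993 times lower than cauda (275 to 8204). Without corpus replicate 1, the fitted log2 changes were -13.13 against caput and -12.37 against cauda, beside -10.45 and -9.69 with it. Crybb1, the adjacent crystallin from 112255815 to 112269585, averaged 0.063 ± 0.109 CPM in corpus, 6.00 ± 1.5 in caput and 12.3 ± 1.86 in cauda (SD, n = 3 each), with 1 count in corpus. Tpst2, a tyrosine sulfotransferase beside them, averaged 18.7 ± 1.2 CPM in corpus, 550 ± 19.0 in caput and 70.0 ± 6.69 in cauda. The next tested genes, Tfip11 and Srrd, were neither peak nor dip. Tfip11 averaged 42.0 ± 2.38 CPM in corpus, 42.4 ± 1.60 in caput and 32.5 ± 1.33 in cauda, and the region was picked after its values were seen.

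The promoters of the 2 crystallin genes are shown because the genes start a short way apart on opposite strands and dip together. They lie at chr5:112252469-112252768 on the minus strand and chr5:112255570-112255869 on the plus strand of GRCm38.p6, with the same motifs searched.
Cryba4: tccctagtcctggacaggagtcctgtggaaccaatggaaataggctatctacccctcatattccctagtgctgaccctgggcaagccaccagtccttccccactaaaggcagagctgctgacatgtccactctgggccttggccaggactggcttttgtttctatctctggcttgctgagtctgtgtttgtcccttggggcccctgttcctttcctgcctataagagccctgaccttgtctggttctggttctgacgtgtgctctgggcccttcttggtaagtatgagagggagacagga
Crybb1: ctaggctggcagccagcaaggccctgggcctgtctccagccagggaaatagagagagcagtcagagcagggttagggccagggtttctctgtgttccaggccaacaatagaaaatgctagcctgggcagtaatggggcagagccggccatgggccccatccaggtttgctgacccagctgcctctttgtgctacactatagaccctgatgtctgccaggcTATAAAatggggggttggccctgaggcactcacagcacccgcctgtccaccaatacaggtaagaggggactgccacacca
Crybb1 held TATAAA 30 bases before the start, and the Cryba4 window held none of the searched letters.

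Several of the abundant dips were genes of secreted proteins with their highest level in caput. Per length, Gpx5, the secreted glutathione peroxidase of the epididymis, averaged 7.07 ± 1.5 RPKM in corpus, 16442 ± 420.1 in caput and 97.9 ± 13.7 in cauda (SD, n = 3 each). It had 17.98, 27.3 and 24.3 CPM in corpus, 48760, 46492 and 51622 in caput and 346, 313 and 258 in cauda. All corpus libraries lay below all cauda libraries, with a log2 change of -3.68 ± 0.15 (SE). Its neighbour Gpx6 averaged 0.166 ± 0.156 CPM in corpus, with 3 counts, 46.5 ± 7.42 in caput and 8.67 ± 0.774 in cauda. Clu, the secreted chaperone clusterin, had 183, 201 and 151 CPM in corpus, 10984, 11551 and 10312 in caput and 2018, 1883 and 2908 in cauda. Clu was 60.8-fold lower in corpus than in caput and 12.8-fold lower than in cauda, and no library crossed. Rnase10, of the ribonuclease A family, had 0.374, 0.310 and 0.377 CPM in corpus, 4842, 4370 and 5397 in caput and 7.86, 9.01 and 9.44 in cauda.

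Among the other dips, Bpi, which binds bacterial lipopolysaccharide, had 0, 0.155 and 0.753 CPM in corpus, 210, 211 and 250.4 in caput and 14.9, 15.01 and 17.9 in cauda. Its log2 change was -9.23 ± 0.24 (SE) against caput and -5.42 ± 0.35 against cauda, and -10.67 and -6.86 without corpus replicate 3. Cited1, a transcriptional co-regulator, averaged 0.572 ± 0.200 CPM in corpus, 13.8 ± 2.80 in caput and 64.8 ± 1.58 in cauda (SD, n = 3 each). St6gal1, a sialyltransferase, averaged 39.0 ± 13.2 CPM in corpus, 1187 ± 20.8 in caput and 143 ± 12.2 in cauda. Pgrmc1, a membrane protein that binds heme, averaged 244 ± 12.9 CPM in corpus, 1266 ± 64.1 in caput and 666 ± 53.5 in cauda. Dnah9, a dynein motor of motile cilia, averaged 0.114 ± 0.101 CPM in corpus, 7.49 ± 0.642 in caput and 11.6 ± 3.88 in cauda. The summed ciliated cell markers, which include Dnah9, were 24.3 to 31.3 CPM in corpus, 84.7 to 105 in caput and 33.1 to 45.2 in cauda, and their part in the dip was not tested.

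**Figure D3:**
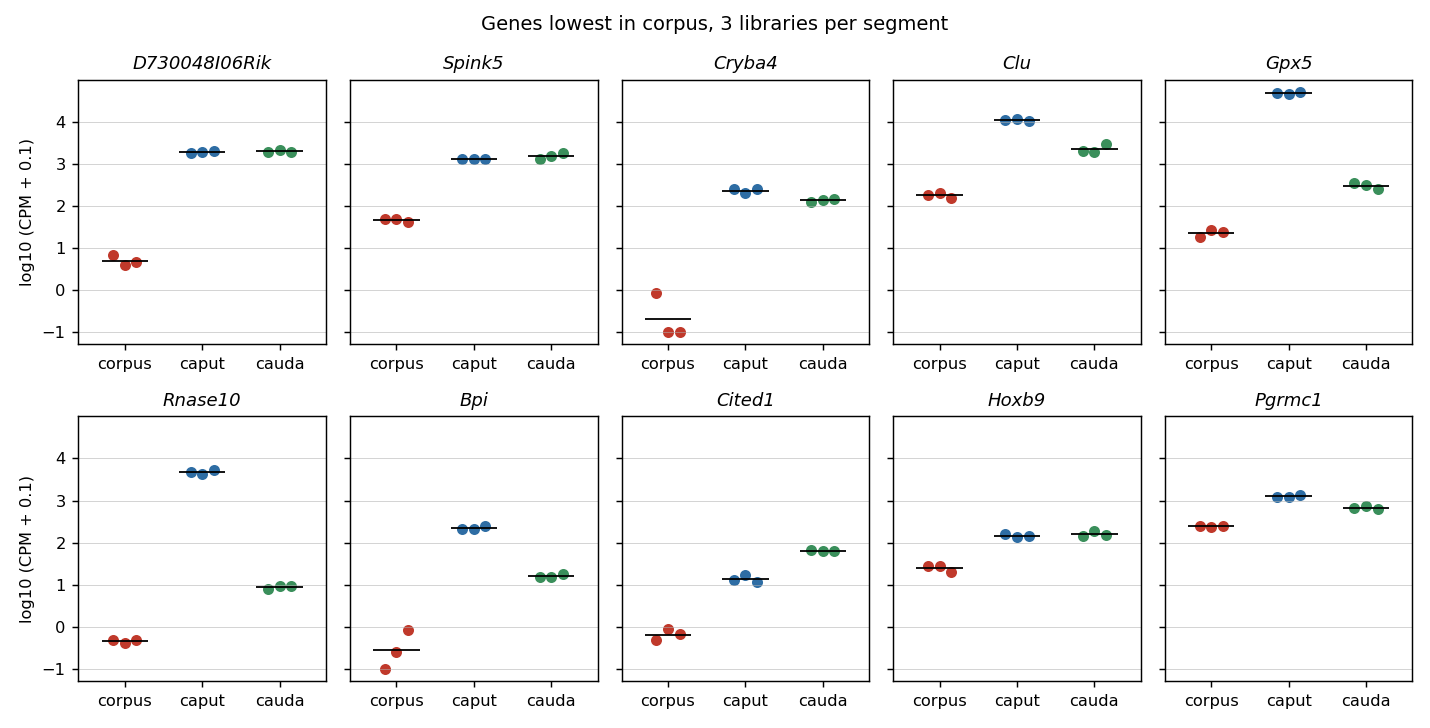
Expression of 10 genes with a corpus dip, as log10 (CPM + 0.1), in 3 libraries per segment, with corpus on the left in red, caput in blue and cauda in green. Bars are the means of the log values, and points at -1 are libraries with 0 counts. D730048I06Rik, Spink5 and Hoxb9 stand at like levels in caput and cauda, while Gpx5, Clu, Rnase10 and Bpi are highest in caput.

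On chromosome 9, peaks and dips stood next to each other in a stretch of 13 tested genes around the Pate genes, which encode small secreted proteins with a Ly6-like fold. The stretch, from 35560820 to 36135630, was picked after its values were seen. From the left, Pus3 was neither peak nor dip, and Hyls1, Pate2, Pate4, Gm17365 and Gm17252 were corpus peaks. Pate2 had 1401, 1257 and 1449 CPM in corpus, 3.04, 1.87 and 1.85 in caput and 320, 289 and 198 in cauda, with corpus above all other libraries. Gm17365 had 147, 121 and 150 CPM in corpus, 0 in each caput library and 1.37, 1.20 and 2.49 in cauda. It was at least 453-fold higher in corpus than in caput, where a floor of 3 counts over the segment was used. Gm17252 averaged 154 ± 10.8 CPM in corpus, 0 in caput and 79.6 ± 21.3 in cauda (SD, n = 3 each). The next gene, Gm17677, averaged 0.063 CPM in corpus, 25.4 in caput and 0.057 in cauda.

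The dips Gm17727 and D730048I06Rik followed in the same stretch. Gm17727 averaged 1.74 ± 0.598 CPM in corpus, 134 ± 17.7 in caput and 156 ± 14.3 in cauda, but all of its exon bases lie within another annotated gene on the same strand, so its counts are uncertain. The last 4 genes, 9230110F15Rik, Gm3428, Gm5916 and Gm3434, were found almost only in caput, at means of 1197, 43.3, 260.5 and 10.7 CPM. Gm5916 averaged 260.5 ± 34.0 CPM there and had 0 counts in corpus and cauda. Pate2, on the plus strand, spans Pate4 and Gm17365, on the minus strand. Its exons cover 20.2% of the exon bases of Pate4 and 3.0% of those of Gm17365. The strand setting of the counting is not given in the sources used here, so Pate4 reads cannot be fully told apart.

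**Figure D4:**
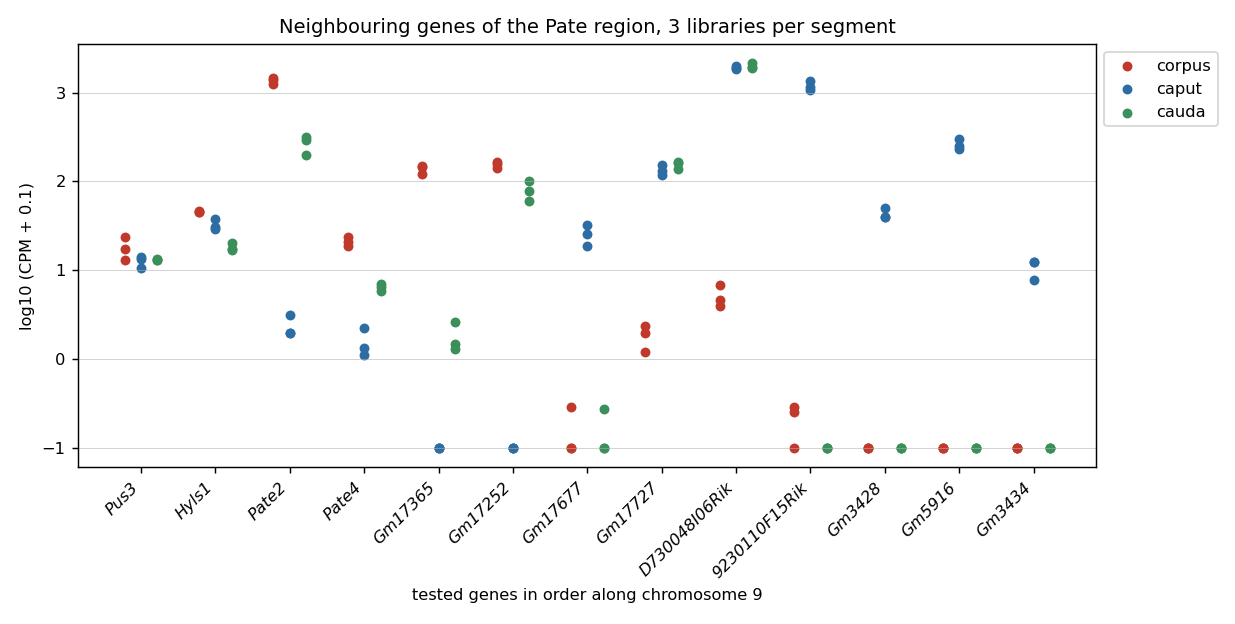
Expression as log10 (CPM + 0.1) of the 13 tested genes of the Pate region in their order along chromosome 9, with 3 points each for corpus (red, left), caput (blue, middle) and cauda (green, right), and points at -1 for 0 counts. Corpus points are highest from Hyls1 to Gm17252, lowest or near 0 from Gm17677 on, and caput alone is high at the right end.

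Another stretch, also picked after its values were seen, held peaks throughout. All 5 tested genes of the casein region on chromosome 5, from 87774567 to 87894174, were 2-fold peaks. Odam, a protein of the tooth enamel organ, averaged 207 ± 32.9 CPM in corpus, 1.69 ± 0.294 in caput and 54.4 ± 8.66 in cauda (SD, n = 3 each). Prr27 averaged 46.5 ± 3.54 CPM in corpus, 2.6 ± 0.638 in caput and 8.23 ± 1.8 in cauda. The milk protein genes Csn1s2a and Csn1s2b were low, at 6.44 ± 0.739 and 2.55 ± 0.722 CPM in corpus, with 0 counts in caput and 0.512 ± 0.596 and 0.112 ± 0.097 in cauda. Over all placed genes, 7.56% of the 1680 tested genes within 100000 bases of a 2-fold peak gene were themselves 2-fold peaks, beside 3.99% of all 14043. For 2-fold dips the shares were 6.60% of 1076 and 2.81% of all. Chance was not tested for either share.

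Of the pathway and family lists with at least 6 tested genes, glycosidases had the largest share of peaks, 38.1%, beside 13.4% peaks and 8.68% dips over all tested genes. Glycosidases, which trim sugars of glycoproteins in lysosomes and in the fluid, had 8 peaks and 2 dips among 21 tested of 21 listed, with a median log2 change against the mean of both neighbours of 0.0011, beside -0.0027 over all tested genes. Man2b1, the lysosomal alpha-mannosidase, averaged 655 ± 98.9 CPM in corpus, 153 ± 6.21 in caput and 177 ± 6.68 in cauda (SD, n = 3 each). Manba, the beta-mannosidase, averaged 166 ± 4.14 CPM in corpus, 46.7 ± 1.89 in caput and 41.0 ± 5.94 in cauda. Fuca1, an alpha-fucosidase, was also a peak and Fuca2 a dip, at 94.2 ± 6.65 CPM in corpus, 176 ± 16.6 in caput and 172 ± 6.80 in cauda. CRISP and sperm-binding proteins had 7 peaks (24.1%) and 2 dips (6.90%) among 29 tested of 32, with a median of 0.46. Crisp1, Crisp2, Crisp3 and Crisp4 were neither. The peaks Glb1l3, Npc2 and Akr1b7 of this list are also counted in the glycosidase, cholesterol and steroid lists, so the lists are not separate. Bsph2, a binder of sperm membrane phospholipids, averaged 417 ± 22 CPM in corpus, 0.264 ± 0.457 in caput and 61.0 ± 14.5 in cauda, and caput held 3 counts, all in replicate 3.

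Lists of protease inhibitors and defensins held both peaks and dips, beside 13.4% peaks and 8.68% dips over all tested genes. WAP-domain inhibitors had 4 peaks (26.7%) and 1 dip (6.67%) among 15 tested of 19, with a median of 0.10. Eppin, a WAP and Kunitz inhibitor of the sperm surface, averaged 341 ± 10.7 CPM in corpus, 193 ± 7.80 in caput and 99.6 ± 15 in cauda (SD, n = 3 each). Beta-defensins had 6 peaks (17.1%) and 2 dips (5.71%) among 35 tested of 44, and a median of -0.84. Defb37 peaked, at 381 ± 7.04 CPM in corpus, 35.3 ± 5.44 in caput and 117 ± 10.3 in cauda. Defb18 dipped, with 1 count in corpus, 508 ± 35.9 CPM in caput and 21.6 ± 6.45 in cauda. Kazal-type inhibitors had 2 peaks and 2 dips among 9 tested of 12 (22.2% each). Serpins had 2 peaks (11.8%) and 1 dip (5.88%) among 17 of 62. Secreted ribonucleases had 2 peaks (22.2%) and 1 dip (11.1%) among 9 of 25. The Ly6, Lypd and Pate family had 2 peaks (12.5%) and 1 dip (6.25%) among 16 of 26. This family and the serpins thus stood near the shares over all tested genes.

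Enzymes of detoxification and steroid handling held both peaks and dips, beside 13.4% peaks and 8.68% dips over all tested genes. Glutathione transferases had 6 peaks (27.3%) and 3 dips (13.6%) among 22 tested of 25, with a median of 0.56. Gstm6 had 491, 553 and 522 CPM in corpus, 134, 144 and 142 in caput and 81.0, 90.9 and 78.7 in cauda, with no overlap. Antioxidant genes had 5 peaks and 5 dips among 29 of 30 (17.2% each). Nqo1, a quinone reductase, peaked at 236 ± 16.2 CPM in corpus, 16.6 ± 1.83 in caput and 62.0 ± 13.7 in cauda (SD, n = 3 each). Androgen and steroid handling genes had 6 peaks (33.3%) and 3 dips (16.7%) among 18 of 25, with a median of 0.064. Srd5a1, a steroid reductase that makes dihydrotestosterone, averaged 129 ± 10.7 CPM in corpus, 46.6 ± 4.98 in caput and 14.5 ± 2.73 in cauda. Sult1e1, the oestrogen sulfotransferase, averaged 118 ± 4.67 CPM in corpus, 1.03 ± 0.572 in caput and 21.6 ± 1.11 in cauda. Akr1b7, an aldose reductase-like enzyme, averaged 154 ± 7.35 CPM in corpus, 0.521 ± 0.224 in caput and 35.9 ± 6.98 in cauda, though 27.2% of its exon bases overlap a gene on the opposite strand. Esr2, an oestrogen receptor, dipped at 1.13 ± 0.640 CPM in corpus, 9.86 ± 1.46 in caput and 2.81 ± 0.347 in cauda.

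Transport and acidification genes went both ways, beside 13.4% peaks and 8.68% dips over all tested genes. Proton pump subunits and carbonic anhydrases had 7 peaks (24.1%) and 3 dips (10.3%) among 29 tested of 40, with a median of 0.24. Besides Car4, the cytosolic carbonic anhydrase Car2 averaged 343 ± 20.2 CPM in corpus, 43.0 ± 5.08 in caput and 76.5 ± 11.9 in cauda (SD, n = 3 each). The pump subunit gene Atp6v1c2 peaked at 130.3 ± 8.41 CPM in corpus, 8.12 ± 1.2 in caput and 73.4 ± 1.69 in cauda. Its fellow subunit Atp6v0d2 dipped, at 50.5 ± 2.43 CPM in corpus, 168 ± 2.87 in caput and 77.9 ± 8.17 in cauda. Water, ion and solute transporters had 7 peaks and 7 dips among 32 of 42 (21.9% each). Slc2a3, a glucose transporter, peaked at 239 ± 12.6 CPM in corpus, 49.3 ± 2.6 in caput and 99.9 ± 6.18 in cauda. Slc30a2, a zinc exporter into vesicles, had 24.3, 27.6 and 22.6 CPM in corpus, 162, 179 and 151 in caput and 167, 188 and 203 in cauda. Corpus libraries for Slc30a2 were far below every other, and both neighbours stood at like levels.

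Retinoid handling held dips and no peaks, with 7 dips (43.8%) among 16 tested of 22 and a median of -0.30. Over all tested genes, 13.4% were peaks and 8.68% dips. Retinoids, the vitamin A derivatives, act through nuclear receptors and are needed for a normal epididymal epithelium. The receptor gene Rara averaged 9.24 ± 2.59 CPM in corpus, 33.3 ± 3.25 in caput and 36.7 ± 1.67 in cauda (SD, n = 3 each). Stra6, the membrane receptor for plasma retinol-binding protein, averaged 2.11 ± 0.921 CPM in corpus, 8.31 ± 2.06 in caput and 5.46 ± 0.450 in cauda. Rarg, Rxra, Rdh10 and Lrat were among the other dips. Lrat, which esterifies retinol, missed the threshold without caput replicate 3 (adjusted p 0.0874, edgeR), without corpus replicate 2 or without caput replicate 1.

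Secretory pathway and unfolded protein response genes had 3 peaks and 8 dips among 25 tested of 26, with a median of -0.22. Canx and Calr, sister chaperones of the endoplasmic reticulum, went opposite ways. Canx, the membrane-bound one, averaged 1786 ± 178 CPM in corpus, 807 ± 51.7 in caput and 1261 ± 9.71 in cauda (SD, n = 3 each). Calr, the soluble one, averaged 1701 ± 132 CPM in corpus, 2798 ± 104 in caput and 2117 ± 81.0 in cauda. Cholesterol genes had 4 peaks and 5 dips among 25 of 26, with peaks in Srebf1 at 488 ± 7.04 CPM in corpus, 322 ± 13.8 in caput and 345 ± 26.2 in cauda, and dips in its relative Srebf2 at 198 ± 8.67 in corpus, 263 ± 3.51 in caput and 261 ± 10.5 in cauda. ROS1-ERK signalling genes had 1 peak (6.25%), Ptpn6, and 4 dips (25.0%) among 16 of 18, with a median of -0.92. Epididymal lipocalins had 2 dips (22.2%) and no peak among 9 of 14. Lcn12 dipped at 82.5 ± 3.42 CPM in corpus, 237 ± 5.31 in caput and 244 ± 9.40 in cauda. Immediate early and stress genes had 3 peaks among 23 (13.0%, beside 13.4% over all tested genes), with a median of 0.73. Against the mean of both neighbours, 12 of the 23 were higher in corpus and 3 lower, beside 26.2% and 24.1% over all tested genes. Of the peaks, Hspa1a and Hspa1b share 64.2% and 66.4% of their 36-base windows with another gene.

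Genes of antigen presentation and the interferon response had smaller shares of peaks than all tested genes, but not of dips. Over all tested genes the shares were 13.4% peaks and 8.68% dips. Antigen presentation genes had 1 peak (6.67%), H2-K1, and 2 dips (13.3%) among 15 tested of 17, with a median of -0.044. The dips were Tap1 and Tap2, the peptide transporter that loads class I molecules such as H2-K1. Tap2 averaged 11.04 ± 2.53 CPM in corpus, 28.5 ± 1.33 in caput and 21.1 ± 3.11 in cauda (SD, n = 3 each), with a larger adjusted p of 0.00112 (edgeR), and 14.1% of its exon bases overlap a gene on the opposite strand. Tap1 averaged 17.7 ± 1.65 CPM in corpus, 26.4 ± 5.72 in caput and 26.6 ± 1.52 in cauda, and missed the threshold without caput replicate 2 (adjusted p 0.0531). Interferon-stimulated genes had 1 peak and 2 dips among 20, with a median of -0.62. Irf9 peaked at 164 ± 7.28 CPM in corpus, 66.4 ± 7.26 in caput and 87.7 ± 8.68 in cauda. Stat2, its partner in the interferon-activated transcription complex, dipped at 37.8 ± 5.43 CPM in corpus, 77.3 ± 8.11 in caput and 55.1 ± 4.37 in cauda.

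Epithelial junction genes had 4 peaks (16.7%) and 5 dips (20.8%) among 24 tested of 37, beside 13.4% and 8.68% over all tested genes. Of these dips, 4 were claudins, the strand-forming proteins of tight junctions. Cldn4 averaged 42.1 ± 3.75 CPM in corpus, 189.5 ± 15.5 in caput and 147 ± 9.52 in cauda (SD, n = 3 each). Cldn2 had 2.25, 0.155 and 1.13 CPM in corpus, 1123, 1018 and 1125 in caput and 15.2, 13.4 and 18.1 in cauda. The log2 change of Cldn2 against cauda was -4.07 ± 0.34 (SE), and -3.35 without corpus replicate 2. Cdh1, the epithelial cadherin, peaked at 528 ± 41.0 CPM in corpus, 299.7 ± 6.57 in caput and 339.9 ± 16.5 in cauda. Hox genes, which pattern the body axis, had 3 dips (10.3%) and 1 peak (3.45%) among 29 tested of 39. The share of dips was thus near the 8.68% over all tested genes. All 3 dips were in the b cluster, whose other tested members, Hoxb1 to Hoxb6, were neither. Hoxb9 had 27.7, 27.1 and 19.96 CPM in corpus, 157, 133 and 147 in caput and 144, 185 and 150.3 in cauda. Hoxb8 and Hoxb7 dipped less, with log2 changes against cauda of -1.05 ± 0.08 and -0.50 ± 0.08. Hoxc9 peaked with overlapping libraries, and its adjusted p against cauda was 0.0383, or 0.208 without corpus replicate 2.

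**Figure D5:**
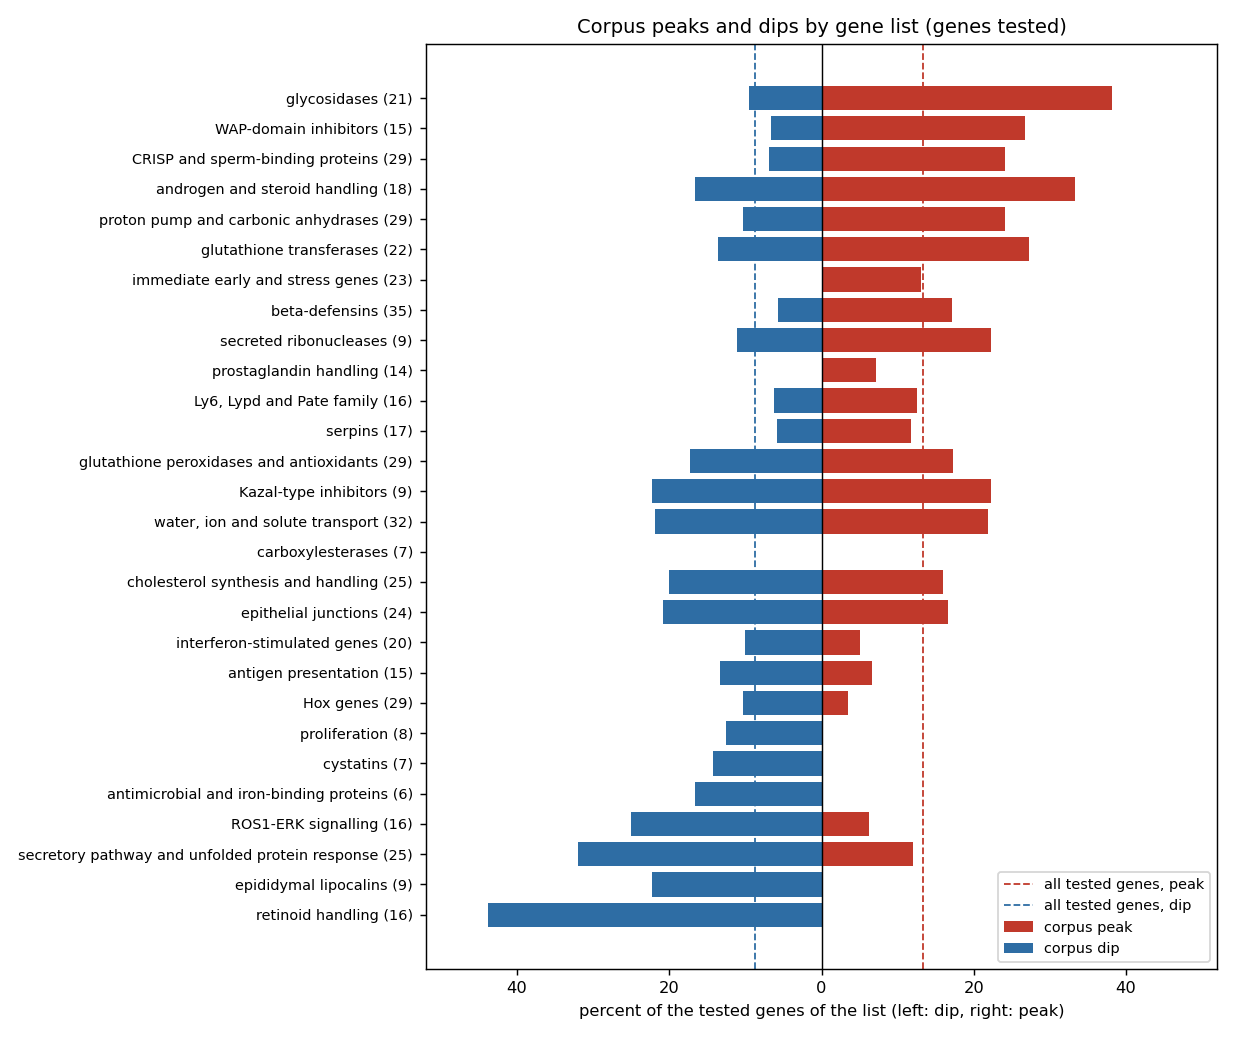
Share of each gene list's tested members with a corpus peak (red, right) or a corpus dip (blue, left), in percent, with the number tested in brackets, for the pathway and family lists with at least 6 tested genes. Dashed lines mark the shares over all tested genes, 13.4% and 8.68%. Glycosidases reach 38.1% peaks, and retinoid handling 43.8% dips with no peak.

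Markers of epididymal principal cells, the main secretory cells of the duct, summed to 43321 to 52467 CPM in corpus, 66185 to 72586 in caput and 74097 to 81213 in cauda. All 9 had counts in corpus. Most of the caput sum was Gpx5, and without it the sums were 43294 to 52443 CPM in corpus, 19434 to 20964 in caput and 73840 to 80867 in cauda. The list had a median log2 contrast with the mean of both neighbours of 1.08, with 6 members higher and 3 lower in corpus. Over all tested genes, 26.2% were higher and 24.1% lower. Markers of other cell types differed between segments, and in bulk tissue fewer cells of a type cannot be told apart from less RNA per cell. Over all tested genes, 13.4% peaked and 8.68% dipped. Smooth muscle markers had 4 dips (33.3%) and no peak among 12 tested, with a median of -1.76. Summed, they stood at 1160, 1349 and 600 CPM in corpus, 2708, 2828 and 2643 in caput and 3660, 4102 and 6649 in cauda. Without Actg2 the sums were 594 to 1325 CPM in corpus, 1280 to 1673 in caput and 3520 to 6374 in cauda, so that corpus and caput overlapped. Actg2, the smooth muscle gamma actin, had 21.3, 24.3 and 6.03 CPM in corpus, 1210, 1155 and 1363 in caput and 140, 200.5 and 275 in cauda. Corpus replicate 3 was the lowest library for both the sum and Actg2. Part of this list is Des, whose call against caput, adjusted p 0.0466 with edgeR, was lost without corpus replicate 3 (0.125), without caput replicate 2 (0.149) and in some other cases. How far muscle content bears on other dips was not tested.

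Basal cell markers had 4 peaks (44.4%) and no dip among 9 tested, beside 13.4% peaks and 8.68% dips over all tested genes. They summed to 570 to 604 CPM in corpus, 469 to 516 in caput and 459 to 503 in cauda. Without Itga6 the sums were 446 to 477 CPM in corpus, 399 to 436 in caput and 424 to 469 in cauda, and corpus overlapped cauda. Itga6, the laminin-binding integrin of basal cells, averaged 124 ± 4.21 CPM in corpus, 74.7 ± 11.6 in caput and 34.2 ± 0.963 in cauda (SD, n = 3 each). The other peaks were small and rested on single libraries, with highest adjusted p (edgeR) against cauda of 0.188 for Krt5 without cauda replicate 3, 0.0982 for Krt14 without corpus replicate 3 and 0.0721 for Itgb4 without cauda replicate 3. Clear cell markers had 2 peaks (25.0%) and 3 dips (37.5%) among 8 tested. They summed to 753 to 800 CPM in corpus, 494 to 529 in caput and 512 to 535 in cauda. The higher corpus sum rested on Car2, since without it the sums were 418 to 435 CPM in corpus, 448 to 483 in caput and 438 to 448 in cauda, and the list's median was -0.047. Within them Car2 and Atp6v1c2 peaked, while the clear cell regulator Foxi1 dipped slightly, at 83.7 ± 4.11 CPM in corpus, 111 ± 6.14 in caput and 116 ± 6.66 in cauda.

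Macrophage markers had 2 dips (14.3%) and no peak among 14 tested, beside 8.68% dips and 13.4% peaks over all tested genes. They summed to 189 to 263 CPM in corpus, 327 to 356 in caput and 259 to 337 in cauda. Fibroblast markers had neither among 11, at 974 to 2014 CPM in corpus, 1167 to 1476 in caput and 1728 to 2011 in cauda. Corpus replicate 2 held the 2014 CPM. Endothelial markers had 1 peak among 9 (11.1%, beside 13.4% over all tested genes). Of 7 erythrocyte markers, 5 had 0 counts in corpus and 1 was tested. That gene, Alas2, the heme synthesis enzyme of red cell precursors, had 23.6, 22.2 and 23.2 CPM in corpus, 2.03, 2.50 and 1.06 in caput and 2.90, 4.20 and 4.14 in cauda. The other erythrocyte markers, all hemoglobin genes, summed to 0 to 0.188 CPM in corpus, 0 in caput and 0 to 0.171 in cauda, and how reads matching several of these similar genes were counted is not given. The part of red cells in the Alas2 peak was not tested. On chromosome X its neighbours Apex2 and Pfkfb1 were also 2-fold peaks, and 12.9% of its exon bases overlap Apex2 on the opposite strand. The adipocyte marker Fabp4 had 0.374, 2.79 and 14.1 CPM in corpus, 2.03, 0.312 and 0 in caput and 1.02, 0.200 and 0.497 in cauda. Its peak overlapped the other segments and was lost without caput replicate 3 (adjusted p 0.0941, edgeR), caput replicate 2 or cauda replicate 2. Accessory gland genes were at 0.310 to 1.88 CPM in corpus, 0 in caput and 181 to 248 in cauda.

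Genes strongly different from the neighbours' mean were not always peaks or dips. Ltf, the iron-binding lactoferrin, averaged 2806 ± 370 CPM in corpus, 0.216 ± 0.188 in caput and 3108 ± 140 in cauda (SD, n = 3 each), so it was higher than the mean by 6.72 on the log2 scale without exceeding cauda. Gpr82, an orphan receptor, averaged 308 ± 38.4 CPM in corpus, 0.625 ± 0.339 in caput and 266 ± 13.3 in cauda. On the lower side, Rnase13 averaged 0 CPM in corpus, 314 ± 16.3 in caput and 0.112 ± 0.097 in cauda, and Tecta averaged 0 in corpus, 99.7 ± 3.62 in caput and 0.124 ± 0.108 in cauda. Just inside the threshold for a peak stood Ddx27 and Gm9992, and just outside it Letm2 and Clk1. Ddx27 averaged 43.1 CPM in corpus, 36.2 in caput and 35.9 in cauda, and Clk1 averaged 286 in corpus, 217 in caput and 249 in cauda. For dips, Hprt was just inside at 78.4 CPM in corpus, 143 in caput and 92.1 in cauda, and Trp53bp2 just outside at 55.3 in corpus, 67.3 in caput and 67.2 in cauda.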

How the data were processed

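Messenger RNA libraries of corpus, caput and cauda (3 each) were made with the KAPA Stranded mRNA-Seq kit and read on a GAIIx as single 36-base ends, per the labels' protocols. Bowtie2 2.2.0, CASAVA 1.8.2, FastQC 0.11.2 and the mm10 build appear in the submitters' processing notes. Not given in the sources used here were the counter, its annotation and strand setting, and how multiply matching reads were treated. Per the file headers, the authors' table holds unnormalized counts of reads for each gene symbol. They also deposited RPKM values (counts scaled by length and depth), which were used here only to compare levels between genes, again per the file headers.

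Of 24059 symbols, 4315 had 0 counts everywhere, and filterByExpr left 14168, which held at least 99.78% of each library's counts. In R 4.3.3, edgeR 4.0.16 with limma 3.58.1 fitted 1 mean per segment (TMM, glmQLFit, robust = FALSE). The coefficient of biological variation was 10.1%. Contrasts were corpus minus caput, corpus minus cauda and corpus minus the mean of both, two-sided, Benjamini-Hochberg adjusted over all tested genes. A peak or dip needed both single contrasts at an adjusted p under 0.05, and the larger is given. Standard errors come from the log2 change and its F statistic. Alternatives were other scalings, filters, DESeq2 1.42.0, limma-voom, robust fits, single-neighbour fits, a replicate block, a threshold of 0.01 and leaving out each library. Leaving out Rn45s, and marker sums without the member whose segment means differ most, were added after seeing the data.

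Named genes were the 15 peaks and 15 dips furthest from both neighbours (at least 10 CPM, no overlap), the 10 most abundant of each, up to 4 peaks and 4 dips per list, genes at the threshold and genes differing only from the mean. The text describes only some of the genes this rule names, and some are not reported here. Region neighbours were chosen after their values were seen. Members and lists were chosen with earlier results of these data known. Coordinates are from GENCODE M21 (mm10), and 14043 tested genes were placed. Promoters are from RefSeq. Only 76.2% of 2-fold peaks and 76.9% of 2-fold dips had a promoter there, under 80%, so a comparison of base composition or motif shares between sets is void and not given.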

Additional observations from a re-analysis of the deposited data

How the results depend on the processing

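The counts of peaks and dips, at any size and at 2-fold, and of genes differing from the mean stayed within 1.5 times under every alternative run, except that the dips numbered 781 at a threshold of 0.01, beside 1230. Leaving out each library gave 1677 to 1811 peaks, 1076 to 1268 dips, 559 to 585 peaks and 351 to 513 dips at 2-fold, 3355 to 3624 genes higher and 3032 to 3297 lower. The 513 came without corpus replicate 2. DESeq2 gave 1477 peaks and 1083 dips. A replicate block gave 1989 peaks and 1338 dips, but same-numbered libraries correlated at -0.045 to 0.239 and 5 of 9 pairs exceeded 0.1, so the numbers were not taken as pairing, although in 14 of 18 comparisons a library correlated best with the library of its own number, a hint from the data and not the design. Of 10218 values of 183 named genes under alternatives, 9970 kept their call, 224 lost it and 24 gained one. Of values called in either fit, 0 reversed direction, while a change of sign between uncalled values was counted as kept. For 51 genes the contrast with the mean gave an unadjusted p over 0.9 (edgeR) despite a log2 change beyond 1, and they count as not called. With 3 libraries a segment, small changes can be missed.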
